A study of Mus musculus with 8 samples.

Results

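The chemokine ligand genes were examined in mSCC-20, a line of FVB/N mouse squamous carcinoma of the skin, after transfection of a microRNA. The members were all gene names on the array that begin with Ccl, Cxcl or Cx3cl followed by a digit, each read by its brightest probe. There were 34 members of 30199 names, and 17 members were among the 17865 genes with enough signal to be tested. Cy3-labelled total RNA was read on 8 Agilent mouse expression arrays with 1 colour each. NC, a control microRNA, was given to the cells of 4 arrays, miR-193b-3p to those of 2 and miR-365a-3p to those of 2. An amount, without saying of what, is also given in the labels. It is 0.2 µg for both miR-193b arrays with NC replicates 1 and 2, and 0.6 µg for both miR-365a arrays with NC replicates 3 and 4. Each microRNA was therefore compared with the 2 NC arrays of its own amount label. All arrays came from 1 cell line. Nothing in the labels tells separate cultures from repeats of 1 culture, so p-values cover only the spread between these arrays, which may be technical.

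Chemokines are small secreted proteins that bind receptors on leukocytes and guide them along a gradient. The CC, CXC and CX3C families are named for the spacing of the first cysteines of the mature protein. Keratinocytes and squamous tumours secrete several of them, and many are switched on through NF-kB, AP-1 or interferon signalling. A microRNA lowers the level or translation of transcripts that pair with its seed, bases 2 to 8 of the mature strand. The mature sequences of both microRNAs are printed to show that their seeds, in capitals, are not the same. They are the mouse entries of RefSeq (GRCm38.p6), where the second is listed as mmu-miR-365-3p and is encoded at loci on chromosomes 11 and 16.
mmu-miR-193b-3p: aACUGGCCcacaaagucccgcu
mmu-miR-365-3p: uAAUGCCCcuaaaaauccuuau

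Ccl27a and Ccl9 passed the test described further on, and the 250 bases before their starts are printed to show which motifs they hold (RefSeq, GRCm38.p6, the C57BL/6J reference, not FVB/N). Capitals mark matches, on either strand and with overlaps counted, to the TATA box (TATAAA), to AP-1 (TGANTCA) or to the kappaB consensus. For Ccl7, which also passed, none is printed.
Ccl9, chr11:83578637-83578886, minus strand: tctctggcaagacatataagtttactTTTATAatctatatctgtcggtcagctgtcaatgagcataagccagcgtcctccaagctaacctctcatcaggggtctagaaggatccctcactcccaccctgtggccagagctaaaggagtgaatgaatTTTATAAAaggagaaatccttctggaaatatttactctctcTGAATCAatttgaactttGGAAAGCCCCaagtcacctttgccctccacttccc
Ccl27a, downstream start, chr4:41770213-41770462, minus strand: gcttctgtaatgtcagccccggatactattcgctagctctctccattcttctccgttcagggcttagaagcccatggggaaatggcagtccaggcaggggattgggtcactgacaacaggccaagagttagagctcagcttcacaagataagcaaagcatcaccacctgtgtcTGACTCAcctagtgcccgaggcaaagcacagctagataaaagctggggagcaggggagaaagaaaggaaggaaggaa
Ccl27a, upstream start, chr4:41774177-41774426, minus strand: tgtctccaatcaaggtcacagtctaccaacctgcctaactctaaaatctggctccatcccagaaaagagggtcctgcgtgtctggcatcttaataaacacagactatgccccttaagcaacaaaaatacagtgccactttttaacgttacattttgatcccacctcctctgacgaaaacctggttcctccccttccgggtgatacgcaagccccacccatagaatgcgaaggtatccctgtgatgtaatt
The Ccl9 window held 3 TATA box matches, of which 2 overlap, 1 AP-1 match at bases -53 to -47 and 1 kappaB match at bases -35 to -26, counted back from the start. The downstream Ccl27a window held 1 AP-1 match at bases -77 to -71, and the upstream one held no match to any of these motifs, nor did a further Ccl27a entry that overlaps it and is not printed. Of 23 members with a promoter entry (26 windows), 9 held a TATA box match in any of their windows, 7 a kappaB match and 3 an AP-1 match. Over all 32817 promoter windows of this length, 12.4% held a TATA box match, 7.25% a kappaB match and 6.75% an AP-1 match. These shares are per window and the member counts per gene, a difference that favours members with several windows. Among the neutrophil chemokines, Cxcl1, Cxcl2 and Cxcl3 each held 2 overlapping kappaB matches. Outside that group, Ccl1 also held 2 overlapping matches, and Cxcl10, a ligand of CXCR3, held 3. A match is a run of letters and says nothing of factor binding in these cells.

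Of the 34 members, 13 were detected on all 8 arrays. These were Ccl2, Ccl5, Ccl6, Ccl7, Ccl8, Ccl25, Ccl27a, Cxcl1, Cxcl3, Cxcl5, Cxcl10, Cxcl11 and Cxcl16, each well above local background by the scanner software's own call. A further 4 were tested because both arrays of some group were above background, Ccl19 on 7 arrays, Cxcl2 on 6, and Ccl1 and Ccl9 on 3 each. Ccl1 entered through the NC arrays of amount 0.6, and Ccl9 through the miR-365a arrays alone. Of the untested members, 10 were above background on no array, among them Ccl3, Ccl4, Ccl20, Ccl22, Cxcl12 and Cxcl14. Cx3cl1 was above background on 3 arrays of 3 groups, and Ccl11, Ccl17, Ccl24, Ccl28, Cxcl9 and Cxcl15 on 1 array each. The processed signals of the 17 untested members lay between 2.76 and 131 arbitrary units. Both arrays were above background for 13 members in NC of amount 0.2, 14 in miR-193b, 16 in NC of amount 0.6 and 16 in miR-365a. The local background of the 0.6 arrays, a median of 26 to 30 units, was below that of the 0.2 arrays, 55 to 60.5 units.

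**Figure D1:**
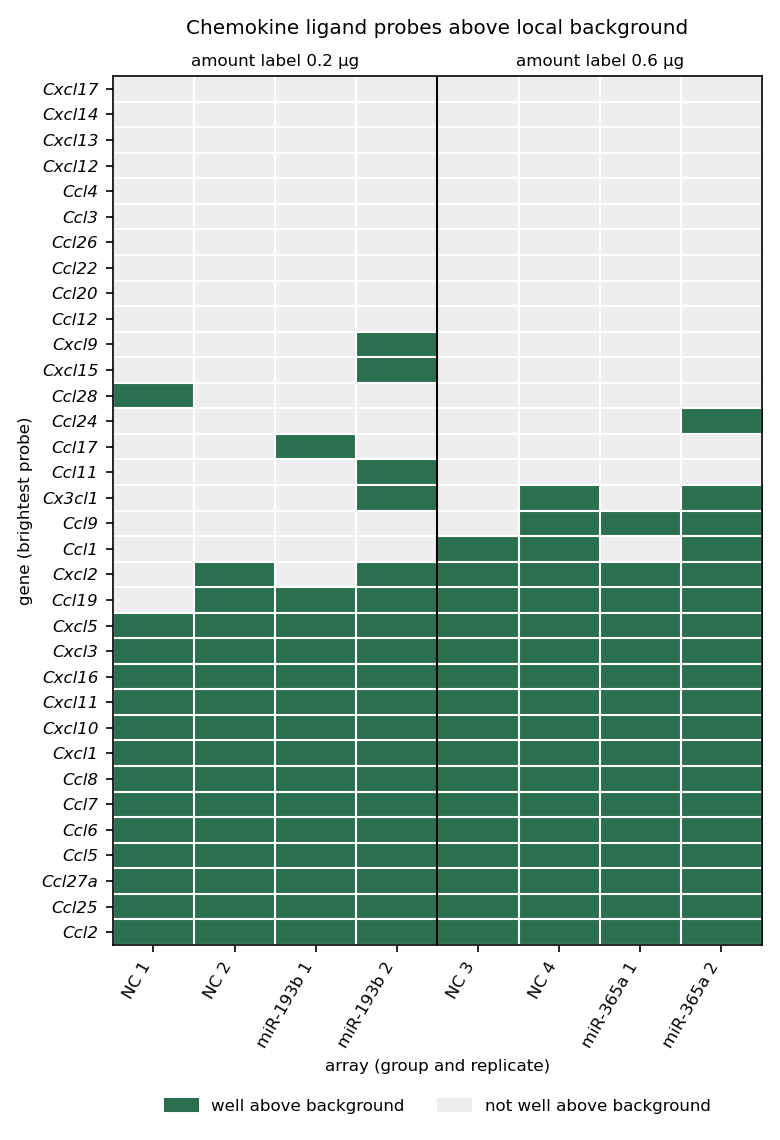
Each row is a chemokine ligand gene (34 rows), each column an array, and a filled cell marks a probe well above local background. The lowest 13 rows are filled on all 8 arrays and the top 10 on none, and 6 of the rows between are filled on 1 array each.

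The arrays gave 51.4% to 54.6% of gene spots above background at amount 0.2 and 59.0% to 62.1% at amount 0.6, with no saturated gene spot and an RNA integrity number of 10 throughout. Of the markers, 11 of 11 keratinocyte or epithelial markers were above background on all 8 arrays, while Ptprc, which all leukocytes carry, was above it on 2 arrays and Emr1 on 1. The summed level of the leukocyte list was 2.61 to 2.69 (log2, relative to each array's 75th percentile) at amount 0.2 and 3.00 to 3.53 at amount 0.6. The other leukocyte markers Cd3e, Itgam, Cd68, Csf1r, Cd14, Ly6g and Cd48 were above background on all 8 arrays. So were 3 of 6 endothelial, 2 of 5 melanocyte and 1 of 7 fibroblast markers. Csf1r rose after miR-365a by 1.90 ± 0.30 (log2 difference ± SE, adjusted p = 0.0129, limma). Calls were not limited to leukocyte markers. After miR-365a, Krt8 (0.61, adjusted p = 0.0383), Itga6 (-0.80, 0.0169) and the melanocyte marker Mitf (-0.68, 0.0268) also passed. After miR-193b the endothelial marker Esam did (0.89, adjusted p = 0.0251, limma for all). In bulk RNA, fewer cells of a type and less RNA per cell cannot be told apart.

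After miR-365a, 2 chemokine ligand genes rose and 1 fell, and after miR-193b none of the 17 passed the test. Ccl7, a monocyte chemoattractant, was 5.87-fold higher with miR-365a than with its NC, and Ccl27a, a skin-homing chemokine of keratinocytes, was 2.06-fold lower. The other riser, Ccl9, entered the test through the miR-365a arrays alone, a filter that favours a rise, and 1 of its 2 NC arrays was not above background, so no fold is given. Across all genes tested, limma called 7.79% higher and 8.01% lower after miR-365a, and 1.71% higher and 1.14% lower after miR-193b, with the adjusted p under 0.05. The members' 2 and 1 of 17 after miR-365a are near those shares. At an unadjusted p under 0.05 there were 7 members after miR-365a and 3 after miR-193b, where 31.2% and 21.3% of all genes tested were under it. The median difference of the 17 was 0.16 after miR-365a and 0.11 after miR-193b (log2), beside 0.02 and 0.05 over all genes tested.

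Counted by arrays that did not overlap, miR-365a was above both NC arrays for 6 members and below both for 4, where 33.7% and 27.9% of all genes tested did so. With miR-193b the counts were 4 and 1 of the 15 members with a value on all 4 arrays, against 29.9% and 22.2% of all genes with such values. The comparisons use different NC arrays. The sign of the difference was the same in both for 12 of the 17. The share over all genes tested was not worked out, so this count shows nothing particular to the members. Some of these signs belong to small differences, such as 0.0047 after miR-193b and 0.16 after miR-365a for Ccl2 (log2).

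**Figure D2:**
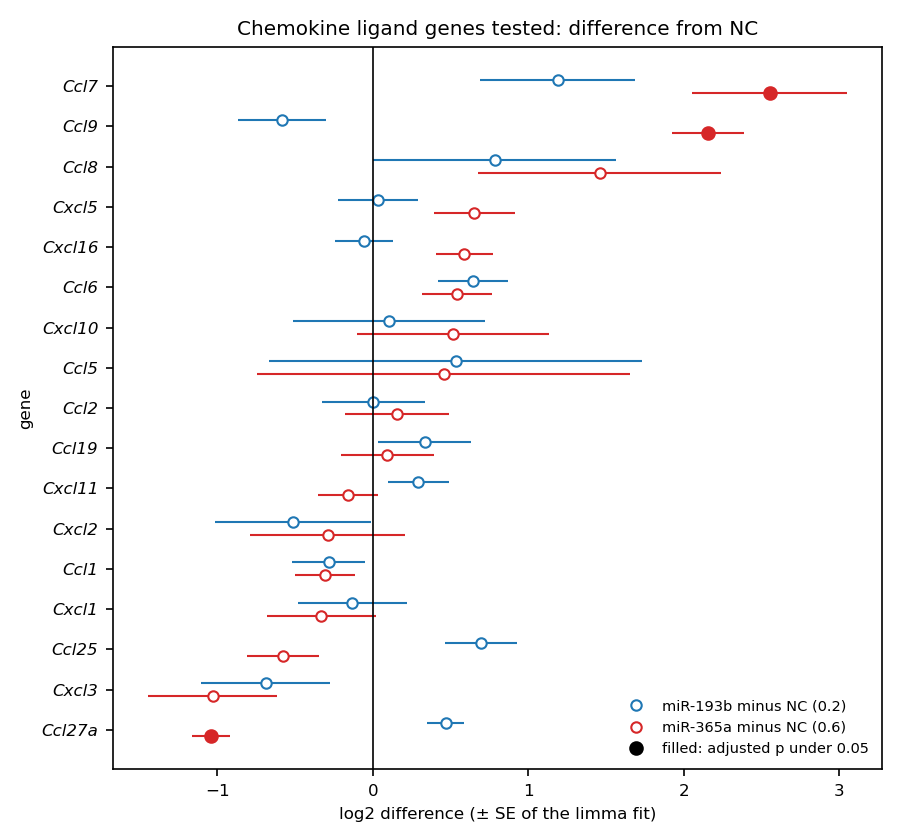
Log2 difference from NC (horizontal axis, ± SE of the limma fit) of the 17 members tested, for miR-193b at amount 0.2 and miR-365a at amount 0.6. Filled points, adjusted p under 0.05, are Ccl7, Ccl9 and Ccl27a, all with miR-365a.

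The monocyte chemoattractants Ccl2, Ccl7 and Ccl8 lie together on chromosome 11. Ccl2 and Ccl7 bind CCR2, the receptor of inflammatory monocytes, and mouse Ccl8 is known as a ligand of CCR8. The probe of Ccl7 is at chr11:81860656-81860715 on mm9, the build of the array's probe positions (all probe positions are on it; no annotation of that build was used here). Its level, log2 signal relative to the array's 75th percentile as throughout, was -0.81 and -1.75 on the NC arrays of amount 0.6 and 1.94 and 0.61 with miR-365a. Both miR-365a arrays were above both NC arrays, a difference of 2.55 ± 0.50 (limma, adjusted p = 0.0220). With miR-193b it was 0.93 and 1.48 against -0.10 and 0.13 with NC, again without overlap, and the difference of 1.19 ± 0.50 did not pass (adjusted p = 0.238). It was 1.04 on slide 1, which held NC replicate 1 and miR-193b replicate 1, and 1.35 between slides 2 and 3. The difference between the microRNA effects was -1.36 ± 0.70 (adjusted p = 0.348, limma). Leaving out NC replicate 3 (adjusted p = 0.0548, limma), NC replicate 4 (0.0880) or miR-365a replicate 1 (0.0841) ended the call after miR-365a, with differences of 3.02, 2.09 and 1.89. The call also ended with all 4 NC arrays as 1 group (adjusted p = 0.0683), with the 0.6 arrays fitted alone (0.0528) and with no filter on dim probes (0.0623).

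Ccl8 stood at -1.04 and -2.50 with NC of amount 0.6 and at 0.64 and -1.26 with miR-365a, so the groups overlapped. Its difference was 1.46 ± 0.78 (limma, adjusted p = 0.268). The NC arrays of amount 0.2 gave -2.51 and -1.19, the miR-193b arrays -1.22 and -0.91, and the difference was 0.78 ± 0.78 (adjusted p = 0.584, limma). Ccl2, which draws inflammatory monocytes into tumours, was at 5.19 and 5.37 with NC of amount 0.2, and 5.10 and 5.48 with miR-193b. It was at 4.21 and 4.35 with NC of amount 0.6, and 4.95 and 3.91 with miR-365a. Its differences were 0.00 (95% interval -0.80 to 0.81) after miR-193b and 0.16 (-0.65 to 0.96) after miR-365a. Ccl12, the fourth gene of the group, was above background on no array.

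Of the macrophage inflammatory group, Ccl5, Ccl6 and Ccl9 were tested while Ccl3 and Ccl4 were dim on every array. Ccl9, which in mice acts on CCR1, is read by a probe at chr11:83388223-83388282. It gave -6.33 and -5.77 with NC of amount 0.6, where NC replicate 4 alone was above background, and -4.07 and -3.73 with miR-365a, where both arrays were. The difference was 2.16 ± 0.23 (limma, adjusted p = 0.00726). It passed in all 18 settings that gave a value. These draw on the same arrays, and all except the setting with no filter on dim probes keep the filter that favours a rise, so they are not independent support. The size of the difference was 0.83 with normexp correction and quantile normalization together and 0.76 in the deposited log2 values. At amount 0.2 no array was above background for Ccl9, and the spot of miR-193b replicate 2 was left out for an outlier flag. Its miR-193b difference, -0.58 ± 0.28 (adjusted p = 0.308, limma), is thus one between dim values with 1 miR-193b array.

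Ccl6, which lies next to Ccl9, was read at -3.93 and -3.66 with NC of amount 0.6 and at -3.13 and -3.39 with miR-365a. It was at -3.91 and -4.46 with NC of amount 0.2 and at -3.41 and -3.67 with miR-193b. In both comparisons the microRNA arrays lay above both NC arrays, by 0.54 ± 0.23 (adjusted p = 0.163) and 0.64 ± 0.23 (adjusted p = 0.176, limma).

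**Figure D3:**
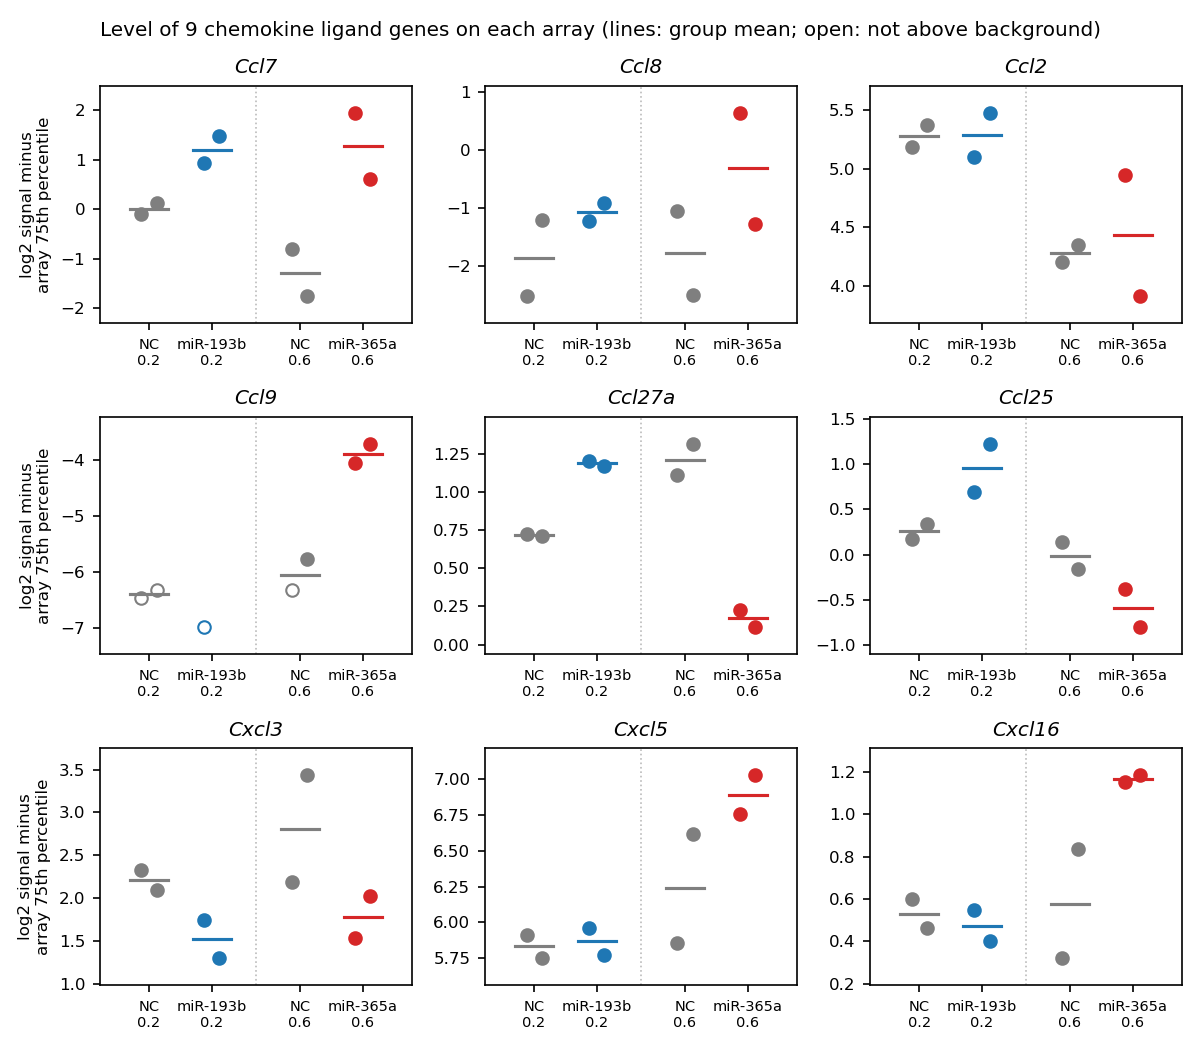
Level of 9 members on each array (vertical axes, log2 signal minus the array's 75th percentile, own scale per gene), by group and amount label. Points are arrays, lines the mean of 2 arrays, and open points are not well above background, as for 4 of the 7 Ccl9 points.

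The epithelial ligands Ccl25 and Ccl27a, for CCR9 and CCR10, had opposite signs after the 2 microRNAs. Ccl27a is made by keratinocytes and draws memory T cells to skin. Its brightest probe is at chr4:41716345-41716404, minus strand, and read 1.11 and 1.31 with NC of amount 0.6 and 0.22 and 0.12 with miR-365a. The miR-365a arrays lay below both NC arrays and below every other array, a difference of -1.04 ± 0.12 (limma, adjusted p = 0.00550). With miR-193b it read 1.21 and 1.17 against 0.73 and 0.71 with NC, without overlap, a difference of 0.47 ± 0.12 that did not pass (adjusted p = 0.0943, limma). The difference was 0.48 on slide 1 and 0.46 between slides 2 and 3. The effects of the microRNAs differed by 1.51 ± 0.17 (miR-193b minus miR-365a, adjusted p = 0.0152, limma), a call that Ccl27a shared with Ccl9 among the members, where 3.48% of all genes tested had one. Ccl27a passed after miR-365a in all 19 settings, with adjusted p from 0.00106 to 0.0457. In mice Ccl27a has a near-identical copy, Ccl27b, and the probes may not tell them apart.

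The 3 Ccl27a probes were all above background on all arrays. The second, at chr4:41716357-41716416, overlaps the first. The third lies apart at chr4:41720610-41720669 and shares a run of 20 bases with 1 probe of another name, Gm20878. Their differences after miR-365a were -1.04, -1.15 and -1.03, with adjusted p of 0.00593, 0.00554 and 0.00805 in a limma fit over all probes. After miR-193b they were 0.47, 0.42 and 0.50, none of which passed. Differences of all 3 probes thus had the same sign and a like size in each comparison.

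Ccl25, a gut and thymus chemokine, read 0.13 and -0.16 with NC of amount 0.6 and -0.38 and -0.79 with miR-365a. It read 0.18 and 0.34 with NC of amount 0.2 and 0.69 and 1.22 with miR-193b. Neither comparison overlapped, and neither passed, with -0.58 ± 0.23 after miR-365a (adjusted p = 0.152) and 0.70 ± 0.23 after miR-193b (adjusted p = 0.164, limma). The difference between these effects was 1.27 ± 0.33 (adjusted p = 0.0950, limma). Both other Ccl25 probes that were above background had the same signs with smaller sizes, -0.39 and -0.36 after miR-365a and 0.23 and 0.37 after miR-193b.

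**Figure D4:**
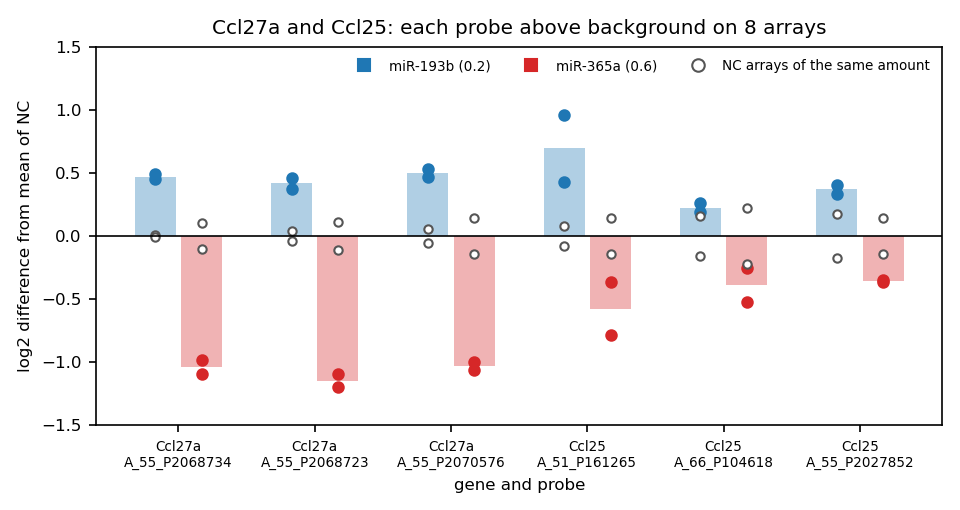
Log2 difference from the mean NC level (vertical axis) for the 3 Ccl27a and 3 Ccl25 probes above background on all 8 arrays. Bars are fitted differences, filled points microRNA arrays and open points NC arrays. The Ccl27a bars with miR-365a lie between -1.15 and -1.03.

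The neutrophil-attracting CXC chemokines act on CXCR2, and none of the 4 tested passed in either comparison. Cxcl3 had a negative difference with both microRNAs. It read 2.33 and 2.09 with NC of amount 0.2 and 1.74 and 1.30 with miR-193b, and 2.18 and 3.43 with NC of amount 0.6 and 1.53 and 2.03 with miR-365a. The arrays did not overlap in either comparison, and the differences of -0.69 ± 0.42 (adjusted p = 0.384) and -1.03 ± 0.42 (adjusted p = 0.152) did not pass (limma). Cxcl5 read 5.86 and 6.62 with NC of amount 0.6 and 6.76 and 7.03 with miR-365a, a difference of 0.65 ± 0.26 (limma, adjusted p = 0.144). With miR-193b it was at 5.96 and 5.78 against 5.91 and 5.75, a difference of 0.03 (95% interval -0.59 to 0.66). Cxcl1 was at 3.88 and 3.99 with miR-365a, below the NC arrays at 4.15 and 4.39, by -0.33 (95% interval -1.18 to 0.52). It was at 3.55 and 4.37 with miR-193b and 3.68 and 4.51 with NC, by -0.13 (95% interval -0.98 to 0.72). Cxcl2, dimmer and above background on 6 arrays, differed by -0.51 ± 0.50 after miR-193b and -0.29 ± 0.50 after miR-365a. Ppbp, a platelet relative of this group outside the name pattern, was at 2.85 and 4.07 with NC of amount 0.6 and 4.25 and 5.08 with miR-365a, by 1.21 ± 0.54 (adjusted p = 0.193, limma).

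Cxcl16, a membrane-bound ligand of CXCR6 that is shed by Adam10, read 0.32 and 0.83 with NC of amount 0.6 and 1.15 and 1.18 with miR-365a. The groups did not overlap, and the difference of 0.59 ± 0.18 lay just outside the threshold (limma, adjusted p = 0.0803). It passed with all 4 NC arrays as 1 group, with a trended robust variance, over probes above background on all 8 arrays and without NC replicate 4. With miR-193b it read 0.55 and 0.40 against 0.60 and 0.46, by -0.06 (95% interval -0.50 to 0.39).

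The ligands of CXCR3 are induced by interferon. Cxcl10 read -3.53 and -1.77 with NC of amount 0.2 and -3.15 and -1.94 with miR-193b, and -5.91 and -5.60 with NC of amount 0.6 and -5.36 and -5.12 with miR-365a. The amount labels separated it fully. NC of amount 0.6 was lower than NC of amount 0.2 by -3.10 ± 0.62 (limma, adjusted p = 0.0249), and the differences after miR-193b (0.11 ± 0.62) and miR-365a (0.52 ± 0.62) were small beside it. Cxcl9 was above background on miR-193b replicate 2 alone, at 55.1 units, with 18.9 on NC replicate 2 and at most 10.9 on the other 6 arrays. Its other probe, assigned to the same transcript, read 8.51 units on miR-193b replicate 2 and was above background on no array.

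The brightest Cxcl11 probe read 7.20 to 7.80 over the 8 arrays, with differences of 0.29 ± 0.19 after miR-193b and -0.16 ± 0.19 after miR-365a (adjusted p of 0.419 and 0.660, limma). RefSeq lists Cxcl11 as a transcribed pseudogene in the C57BL/6J reference. The other Cxcl11 probe, assigned to the same transcript, read far lower, at 1.94 to 2.37 over the 8 arrays. It differed by 0.11 and -0.27 (adjusted p of 0.732 and 0.310 in the limma fit over all probes). The brightest one shared a run of 20 bases with 22 of the 32817 promoter windows of RefSeq and with 7 probes of other names. The most shared run, printed because it is what the probe has in common with other loci, occurs in 15 windows.
Cxcl11 probe, shared run: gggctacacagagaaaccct
No other member probe shared such a run with more than 2 windows. Whether the Cxcl11 signal is that of Cxcl11 RNA was not tested.

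Ccl5, which draws T cells, was the member with the widest gap between NC arrays of the same amount label. NC read -0.49 and 2.08 at amount 0.2 and -1.14 and 1.46 at amount 0.6, miR-193b read 0.74 and 1.92, and miR-365a read -0.27 and 1.51. Every group spanned more than 1 log2 unit, and the differences of 0.53 and 0.46 had an SE of 1.20 (adjusted p of 0.823 and 0.865, limma). The gaps between NC arrays of the same label, 2.58 and 2.60, exceeded those of 99.4% and 99.8% of all genes tested. Interferon signalling and induced genes moved with it, as 28 of 29 were higher on NC replicate 2 than on NC replicate 1, by a median of 1.37, and 26 of 29 on NC replicate 4 than on NC replicate 3, by a median of 0.52. Over all genes tested these medians were 0.07 and 0.02. The antiviral sensor gene Oas1a, for example, read -3.33 and 1.79 on NC replicates 1 and 2, and the interferon-induced Ifit1 read -3.86 and 0.15. Cxcl10 was 1.76 higher on NC replicate 2 than on NC replicate 1, and 0.31 higher on NC replicate 4 than on NC replicate 3. The part of the interferon genes in the spread of Ccl5 and Cxcl10 was not tested.

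**Figure D5:**
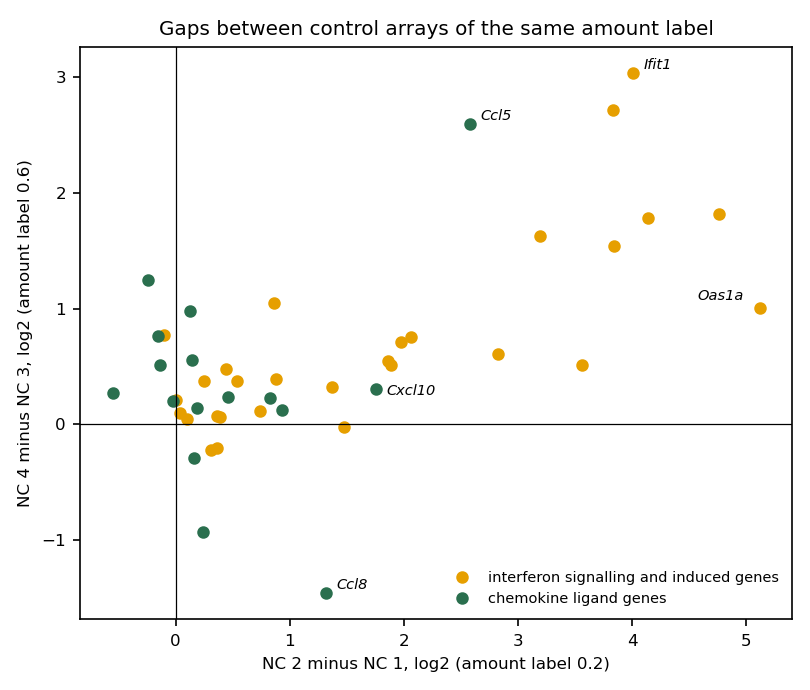
Gap between the NC arrays of amount 0.2 (horizontal axis, log2) and of amount 0.6 (vertical axis, log2) for chemokine ligand genes and for interferon signalling and induced genes. Ccl5, at 2.58 and 2.60, lies among the interferon genes.

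Ccl19, a CCR7 ligand that guides cells to lymph nodes, read -5.35 and -4.41 with NC of amount 0.2, -4.65 and -4.44 with miR-193b, -3.70 and -3.58 with NC of amount 0.6 and -3.68 and -3.41 with miR-365a. Ccl1, a CCR8 ligand, was at -6.89 on NC replicate 1 (the spot of NC replicate 2 was left out for an outlier flag), -7.09 and -7.25 with miR-193b, -5.94 and -5.62 with NC of amount 0.6 and -6.27 and -5.90 with miR-365a. Neither passed after a microRNA, with differences of 0.34 ± 0.30 and 0.09 ± 0.30 for Ccl19 and -0.28 ± 0.23 and -0.31 ± 0.19 for Ccl1. Ccl19 has gene copies in the mouse genome that its probes may also read. A further Ccl19 probe gave 1244 units on miR-193b replicate 1 and at most 9.33 units on the other arrays.

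Between the NC arrays of the 2 amount labels, 4 of the 17 members passed, beside 15.5% of all genes tested (either direction, limma). Cxcl10 was lower at amount 0.6, as given above, and Ccl1 (1.10 ± 0.23, adjusted p = 0.0376), Ccl19 (1.24 ± 0.30, adjusted p = 0.0411) and Ccl27a (0.49 ± 0.12, adjusted p = 0.0417) were higher. Ccl1 entered the test through the NC arrays of amount 0.6, where it is higher, and its amount 0.2 side is 1 NC value not above background. Its other probe, above background on no array, went the other way, with -7.57 and -6.06 at amount 0.2 and -8.61 and -8.39 at amount 0.6 (NC). With the mean over all probes of a gene, the difference was -0.50 for Ccl1 (adjusted p = 0.395) and 0.63 for Ccl19 (adjusted p = 0.556, limma), and neither passed. With slide as a random block Cxcl10 alone passed (adjusted p = 0.0363, limma), and Ccl1 (0.0741), Ccl19 (0.0696) and Ccl27a (0.0880) did not. Without NC replicate 3 or NC replicate 4 none of these 4 passed, with adjusted p of 0.0909 and 0.110 for Cxcl10. The amount label goes together with slide 4 and the scan session, so these cannot be told apart.

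The receptors were mostly absent from the signal. Of 24 on the array, 6 were tested, namely Cxcr7 (Ackr3, a scavenger of Cxcl11 and Cxcl12, above background on all 8 arrays), Cxcr6 on 7 arrays, and Ccr8, Ccrl2, Cxcr2 and Ccr9 on 5, 5, 5 and 4. None passed in either comparison (limma), and 2 after miR-193b and 0 after miR-365a were under 0.05 before adjustment, beside 21.3% and 31.2% of all genes. Cxcr7 differed by -0.15 ± 0.40 after miR-193b and -0.89 ± 0.40 after miR-365a (adjusted p = 0.195), and Cxcr6 by 0.46 ± 0.27 and 0.18 ± 0.27.

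Of 37 tested NF-kB subunits, inhibitors and activators, 6 rose and 1 fell after miR-365a, and 1 rose after miR-193b. Before adjustment, 13 were under 0.05 after miR-365a and 9 after miR-193b (limma), beside 31.2% and 21.3% of all genes. Myd88, the adaptor of Toll-like and interleukin-1 receptors, fell after miR-365a by 1.32 ± 0.14 on the log2 scale (adjusted p = 0.00479), from 0.44 and 0.64 with NC to -0.77 and -0.80. Il17rc, a subunit of the interleukin-17 receptor, rose after miR-365a (0.95 ± 0.14, adjusted p = 0.0103) and after miR-193b (0.77 ± 0.14, adjusted p = 0.0485). Il1rap (0.91), a co-receptor for interleukin-1, and Tnip1 (1.13), an inhibitor of NF-kB signalling, rose as well after miR-365a. The subunits Nfkb1, Nfkb2, Rela and Relb did not pass in either comparison, and Rel was too dim to be tested.

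Of 21 tested inflammatory cytokines and partners, 3 fell after miR-365a and 1 after miR-193b, and none passed as higher. Before adjustment, 10 were under 0.05 after miR-193b and 6 after miR-365a (limma), beside 21.3% and 31.2% of all genes. Those after miR-193b went in both directions, such as Il18 at 1.83 ± 0.40 and Lcn2 at -1.86 ± 0.47, neither of which passed (adjusted p of 0.0679 and 0.0929, limma). Il24 fell with both, by 1.32 ± 0.18 (adjusted p = 0.00797) and 0.97 ± 0.18 (adjusted p = 0.0474). Csf3, the neutrophil growth factor, fell by 1.42 ± 0.31 after miR-365a (adjusted p = 0.0292) and had a difference of -1.33 ± 0.31 after miR-193b (adjusted p = 0.0762). Ptgs2, the inducible cyclooxygenase, fell by 1.16 ± 0.28 after miR-365a (adjusted p = 0.0390, limma for all).

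Of 10 tested genes of chemokine processing and retention, 1 rose and 2 fell after miR-365a, and none passed after miR-193b. Before adjustment, 5 were under 0.05 after miR-365a and 1 after miR-193b (limma), beside 31.2% and 21.3% of all genes. The sheddases Adam10 and Adam17 fell after miR-365a by 0.58 ± 0.12 (adjusted p = 0.0257) and 0.89 ± 0.18 (adjusted p = 0.0263). Zfp36l1, which destabilises cytokine mRNA, rose after it by 0.84 ± 0.15 (adjusted p = 0.0181, limma for all). Of 29 tested interferon genes, Ifngr2, a subunit of the interferon-gamma receptor, was the only one that passed, higher after miR-365a by 1.03 ± 0.25 (adjusted p = 0.0390, limma). None passed after miR-193b. Before adjustment, 3 were under 0.05 after miR-193b and 4 after miR-365a (limma), smaller shares than the 21.3% and 31.2% of all genes. The counts of called genes in these lists are to be read beside 7.79% higher and 8.01% lower over all genes after miR-365a. After miR-193b these shares were 1.71% and 1.14%.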

How the data were processed

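The 8 scanner files hold spot intensities (arbitrary units), which Feature Extraction 10.7.3.1 made from the scans with the background subtracted on each array, per the file headers. A deposited table of log2 values of the same arrays, made with limma per the submitters' processing notes, was used as an alternative. Its background correction is not given in the sources used here. Control spots and spots with an outlier flag were left out. From the log2 signal, the 75th percentile of gene spots was subtracted per array, spots of a probe were averaged, and each name was read by its brightest probe. With 4 groups by transfection and amount, a gene was tested if some group had that probe well above background on both its arrays. The fit was limma 3.58.1 (lmFit and eBayes, under R 4.3.3) and used all 8 arrays, its terms being amount, miR-193b and miR-365a, leaving 4 residual degrees of freedom. The Benjamini-Hochberg adjustment ran over 17865 genes, with calls at an adjusted p under 0.05. The fit was also run on simulated data with independent noise between arrays and changes added to the miR-193b arrays alone. Part of the added changes were not called there. That simulation held no effect of amount, slide or shared culture, so it cannot show how the fit deals with these. All members with enough signal are named, and of other lists at most 4 called genes per comparison, together with the tested receptors. The members and lists were chosen with earlier results of these data known. The number of arrays limits the precision.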

Additional observations from a re-analysis of the deposited data

Results flagged for a closer look

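The effects of the microRNAs differed for 2 members by the test of the difference itself (limma, 3.48% of all genes tested were called). For Ccl27a, the miR-193b effect minus the miR-365a effect was 1.51 (adjusted p = 0.0152), with miR-193b above its NC arrays on 2 of 2 arrays and miR-365a below its NC arrays on 2 of 2. The difference passed in 12 of 18 settings, with adjusted p from 0.00313 to 0.0701. It was lost with no filter on dim probes (0.0680) and without NC replicate 3 (0.0549), NC replicate 4 (0.0677), miR-193b replicate 1 (0.0557), miR-365a replicate 1 (0.0694) or miR-365a replicate 2 (0.0701). For Ccl9 it was -2.74 (adjusted p = 0.0287), with no array of amount 0.2 above background and 1 miR-193b array with a value. Ccl9 entered the test through the miR-365a arrays alone, a filter that favours a difference in this direction. It passed in 8 of 16 settings, with adjusted p from 0.00505 to 0.108 and a difference of -0.85 with normexp correction and quantile normalization. It was lost with that setting, with no filter on dim probes, and without NC replicate 1, 2, 3 or 4 or miR-365a replicate 1 or 2.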

How the results depend on the processing

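In the 18 alternatives run, the count of members called after miR-193b was 0 and after miR-365a 2 to 4. Ccl27a after miR-365a passed in 19 of 19 settings, Ccl9 in 18 of 18 and Ccl7 in 13 of 19. All settings draw on the same arrays, and Ccl9 has no value in the one limited to probes above background on all 8 arrays. Over the NC amount labels the count of 4 members became 2 with the mean over probes, with median scaling or over probes detected on all 8 arrays. It became 1 with slide as a random block (correlation 0.30), and was lower in each setting without 1 array. With no filter on dim probes it was also 2, but these were other members, as none of the 4 passed there (adjusted p of 0.0611 to 0.0744, limma). It was 3 with normexp correction and quantile normalization and 3 in the deposited values, in both with a member outside the 4. In these settings Cxcl10 and Ccl19 passed, while Ccl27a (adjusted p of 0.0821 and 0.109) and Ccl1 (0.0520 and 0.211, limma) did not. For the difference between microRNA effects, the count of 2 became 0 with no filter, 1 with normexp correction and quantile normalization, 1 over probes detected on all 8 arrays, 3 with all 4 NC arrays as 1 group and 3 with a trended robust variance, and 0 to 2 without 1 array. Genes called after miR-193b, 510, became 283 with all 4 NC arrays as 1 group, 0 with the amount label fitted alone (3110 under 0.05 before adjustment), 844 in the deposited values, 315 with the mean over probes, 11 with no filter, 872 with normexp and quantile normalization, 875 over probes above background on all 8 arrays and 1038 with a trended robust variance. They were 9 to 276 without 1 array. Genes called after miR-365a, 2822, became 1064 with no filter and 588 to 2845 without 1 array. The causes of these changes were not tested. A setting that leaves 1 array in a group assumes that it varies like the others. No fit with a replicate block was made, since the labels give no replicate numbers that pair arrays. Probes near background, such as those of Ccl1 and Ccl9, limit what the signal can show.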
